A study of Drosophila melanogaster with 4 samples.

Results

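The transcripts described here gave a microarray signal well above background in Drosophila embryos that lack grainy head (grh) function, and no signal of that strength in wild-type embryos. Each is a target, meaning a FlyBase transcript accession (FBtr) with its probes on the array. A target was a member if none of its probes carried the scanner's well-above-background mark on either wild-type array, if its chosen probe carried that mark on both grhIM arrays, and if its log2 signal was higher in grhIM by at least 1.58, which is 3-fold. The chosen probe was the brightest of the target by its mean over the arrays. By this rule 36 of 14753 FBtr targets were members, or 0.244%. The rule used the difference between the genotypes on all 4 arrays, so that difference is described for the members and not tested.

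Each genotype was sampled as 2 pools of about 500 whole embryos, which were kept at 25°C and collected in late stage 16 and early stage 17. The grhIM embryos, (+; cn, grhIM, bw, sp; +), were homozygous for an allele with a stop codon in the part of grh that encodes the DNA-binding domain, and they were picked by the absence of the fluorescent CKG balancer among the offspring of heterozygous parents. The wild-type embryos were (y; cn, bw, sp; +). Both genotypes thus carried cn, bw and sp, the wild-type strain alone carried y, and the effect of grhIM and that of the strain background cannot be told apart. The 4 arrays lay on 1 slide and shared 1 scan time. The embryo collections were made in duplicate according to the methods of the study, but whether they shared parents is not stated, so the p-values measure the spread between these collections.

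Grainy head is a transcription factor of epithelial cells, known in the fly for its part in forming the cuticle and in the response of the epidermis to wounding. Late in embryogenesis the epidermis secretes the cuticle, the barrier around the larva. In RNA of whole embryos, more RNA per cell and more cells of a type cannot be told apart. The scanner files give probes by accession, and the table of RefSeq genes used for names gave a name to 33 FBtr targets and to 0 of the 36 members. The members are therefore called by their rank, from 1 for the largest log2 difference to 36 for the smallest, and by accession only for the 2 with the largest bounds. Cell type markers could not be set beside the members, because 1 of the 104 symbols written out in the chosen lists had a named target.

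The arrays differed in how many targets they marked. On grhIM replicates 1 and 2, 85.9% and 88.4% of FBtr targets carried the mark, compared with 87.0% and 90.5% on wild-type replicates 1 and 2. No gene spot was saturated. All levels below are log2 processed signals minus the median of the gene probes of the array, so that 0 is the middle of an array. On that scale the lowest marked probe lay at -4.72 and -5.21 for grhIM and at -5.04 and -5.82 for wild-type, so wild-type replicate 2 had the lowest limit. The mutated gene itself was not a member. A clone accession named as grh had 3 probes, which did not give the same difference. The brightest was at 1.13 and 1.31 in grhIM, against 0.17 and 0.35 in wild-type, and the next at 0.70 and 0.96 in grhIM, against -0.19 and 0.05 in wild-type. The dimmest was at -2.16 and -2.17 in grhIM, against -2.17 and -2.40 in wild-type. The lesion is a stop codon, so this transcript does not check the labels.

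FBtr0078004 had the largest difference of the 36. Its levels were 1.14 and 1.00 on the grhIM arrays, against -6.72 and -7.48 on the wild-type arrays. It was thus brighter than the typical gene probe in the mutant and at the bottom of the scale in wild-type. The log2 difference was 8.17. Because its probe was not well above background in wild-type, the fold is a bound, taken as the mean grhIM level against the mean, over the wild-type arrays, of the higher of the probe's own level and the lowest level of any marked probe. On the scale of processed signals, which holds for all bounds given here, FBtr0078004 was at least 90.6-fold higher in grhIM. Its mean level was 1.07 ± 0.10 in grhIM and -7.10 ± 0.53 in wild-type (SD, n = 2 each). The gap between the genotypes exceeded the gap between replicates of either, but the rule chose on it, so it is only described.

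FBtr0075290 came next, with levels of 0.42 and 0.31 on the grhIM arrays, against -6.32 and -6.56 on the wild-type arrays. It was at least 55.6-fold higher in grhIM. A second probe of the same target gave -0.61 and -0.70 on the grhIM arrays, against -6.15 and -6.62 on the wild-type arrays. Both probes placed the target near the middle of the grhIM arrays and below the lowest marked level in wild-type. The member of rank 3 had levels of -0.10 and 0.25 in grhIM, against -6.57 and -5.80 in wild-type, and was at least 45.1-fold higher in grhIM. These were the 3 members whose mean grhIM level lay above the array median.

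The ranks from 4 to 12 had bounds of 9.77-fold to 27.4-fold, and ranks 14 and 18, at 13.0-fold and 11.2-fold, fell within the same range. The member of rank 8 had the highest grhIM level of these, at -0.16 and -0.37, against -4.86 and -5.23 in wild-type. Both wild-type values of rank 8 lay above the lowest level of a marked probe on their arrays, so its bound of 27.4-fold is its fitted fold. The member of rank 4 had levels of -0.90 and -0.75 in grhIM, against -6.25 and -6.21 in wild-type, with a bound of 24.3-fold. The members of ranks 6 and 7 had nearly equal differences, 4.95 and 4.92, but their bounds were 9.77-fold and 20.9-fold. Rank 6 was dimmer in both genotypes, at -2.16 and -2.13 in grhIM, against -6.71 and -7.47 in wild-type. Rank 7 was at -1.05 and -1.04 in grhIM, against -5.59 and -6.34 in wild-type.

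The remaining members were faint also in the mutant. Over all 36, the mean grhIM level ran from -4.19 through a median of -2.45 to 1.07, and the mean wild-type level from -7.10 through a median of -5.99 to -4.84. The median bound was 7.04-fold, the smallest was 2.36-fold, and 17 members reached at least 8-fold. In 5 members the bound was under 3-fold although the fitted difference passed 3-fold. Their wild-type values lay below the lowest marked level on both arrays in ranks 23, 28, 33 and 34, and on wild-type replicate 1 in rank 36. Just inside the threshold, rank 36 had a log2 difference of 1.70, with -3.69 and -4.01 in grhIM against -5.81 and -5.29 in wild-type, and rank 35 one of 1.71. Just outside it, targets that met the detection criteria had differences of 1.5 and 1.43. The first had -3.33 and -2.92 in grhIM, against -4.59 and -4.66 in wild-type.

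Members with like differences were not alike in level. Ranks 28, 29 and 30 all had differences near 2.4, yet rank 28 was the faintest of all 36 in grhIM, at -3.93 and -4.45, against -6.65 and -6.53 in wild-type. Rank 29 was at -2.51 and -2.41 in grhIM, against -4.52 and -5.16 in wild-type. That wild-type mean was the highest of all members, and for rank 29, as for ranks 8 and 30, the bound equals the fitted fold, here 5.20-fold. Rank 28 had the smallest bound, 2.36-fold, since both its wild-type values lay under the lowest marked level. Rank 23 shows the same on a larger scale, with -4.18 and -4.15 in grhIM, against -6.71 and -7.47 in wild-type. Its fitted fold was 7.60, while its bound was 2.41-fold. By bound, the order of the members therefore differed from their order by difference, and rank 23 was in place 35 by bound.

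**Figure D1:**
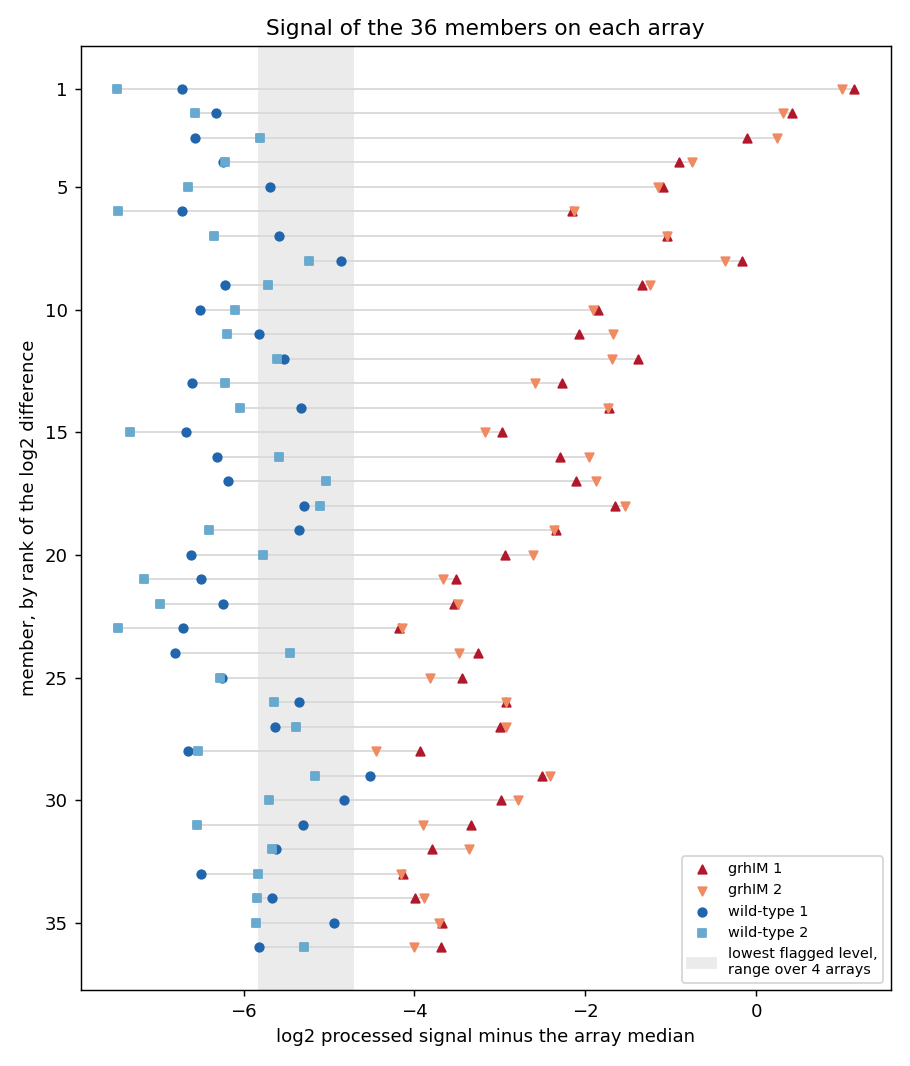
Each row is a member, ordered from the largest log2 difference at the top, and each point is its level on 1 array (log2 processed signal minus the array median); the grey band spans the lowest level of a marked probe, -5.82 to -4.72 over the 4 arrays. In every row both grhIM points lie to the right of both wild-type points, and from rank 4 down all grhIM points lie below the array median.

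In all 36 members both grhIM values were above both wild-type values, a pattern found in 35.5% of the 12988 tested FBtr targets, those with the mark on the 2 arrays of either genotype. All 36 were at least 3-fold higher by the rule, beside 2.17% of the tested targets. The narrowest gap between the lower grhIM value and the higher wild-type value of a member was 1.23. With limma over those targets, 33 of the 36 were called higher in grhIM at a Benjamini-Hochberg adjusted p under 0.01, beside 4.64% of all targets tested and 10.2% called in either direction. The 3 that were not called were ranks 24, 31 and 35. The members were chosen on this contrast, so nothing is read from the counts of this paragraph.

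The spread between replicates was read for each genotype on its own, since the rule takes faint values in wild-type and brighter ones in grhIM. The members' 2 grhIM values differed by 0.15 in the median and by at most 0.57, with 34 of 36 within 0.5. Their 2 wild-type values differed by 0.66 in the median and by up to 1.34, and 15 of 36 were within 0.5. The widest wild-type pair was that of rank 24, at -6.80 and -5.46, against -3.25 and -3.48 in grhIM. Neither wild-type pool was the lower one throughout, since replicate 2 lay below replicate 1 in 22 members. For comparison, 3972 FBtr targets were marked on both grhIM arrays and lay within the members' range of grhIM levels. Between the grhIM arrays these differed by 0.13 in the median, close to the members' 0.15. They were matched to the members on the range only, and most members lay toward its faint end.

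By brightness the members sat at the faint end of what the mutant arrays measured. The median grhIM level of the 12661 FBtr targets marked on both grhIM arrays was 2.56, and all 36 members were below it. In the order of these targets from faint to bright, the members' median position was 7.60%, 22 of them were in the faintest 10%, and the brightest, FBtr0078004, was at 31.6%. The rule asks that no probe carry the mark in wild-type, which keeps the members faint there, and sets no upper limit in grhIM.

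**Figure D2:**
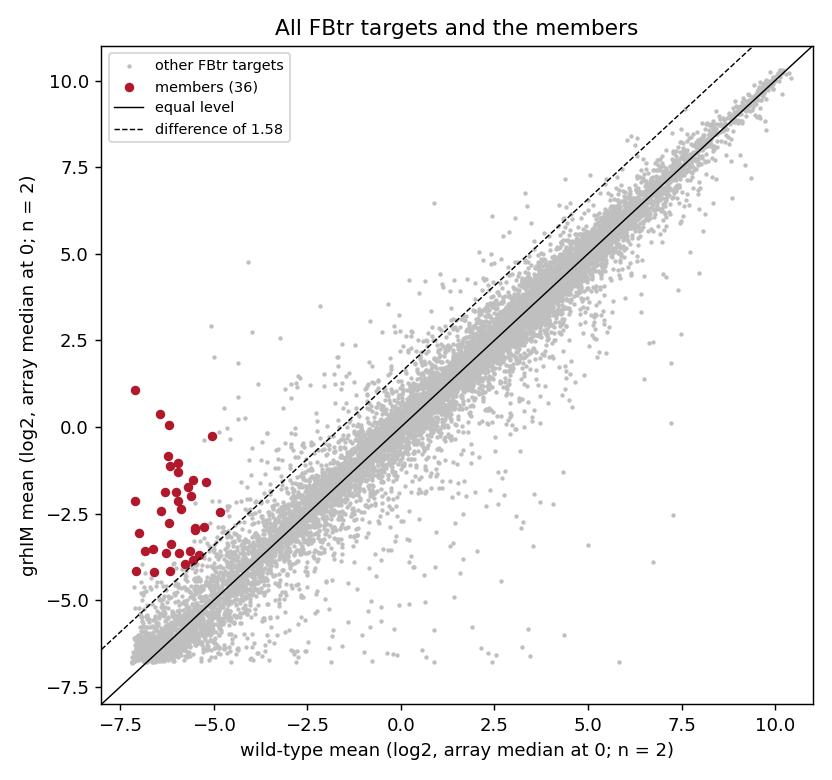
Each point is an FBtr target, with its mean wild-type level across and its mean grhIM level up (log2, array median at 0, 2 arrays each); members are red, the solid line marks equal levels and the dashed line a difference of 1.58. The members lie at the left, above the dashed line, at wild-type means of -7.10 to -4.84 and grhIM means of -4.19 to 1.07.

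The label of detection in the mutant alone was examined with other measures of the same spots. The scanner also marks a signal as positive and significant against the local background, a weaker criterion than well above background. All 36 members met it on both grhIM arrays, and 27 of 36, or 75%, met it on both wild-type arrays too. A further 4 met it on 1 wild-type array, and 5 on neither. Among the 1392 FBtr targets without a well-above-background mark in wild-type the share that met it on both arrays was 35.6%. By this weaker mark the data go against calling the members detected in the mutant alone, and the members are better described as well above background in grhIM alone. The 5 that met it on neither were ranks 1, 6, 15, 21 and 23, of which FBtr0078004 at rank 1 had the largest bound. FBtr0075290, at rank 2, was among the 27 that met it on both wild-type arrays.

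Raw spot brightness gave the same order of genotypes. The members' raw median signals ran from 77 to 936 on grhIM replicate 1 and from 76 to 914 on grhIM replicate 2, against 51 to 74 on wild-type replicate 1 and 55.3 to 73 on wild-type replicate 2. Negative-control spots, whose sequences match no fly gene, reached at most 62.5 and 63.5 in grhIM, against 61 and 65 in wild-type. All 36 members were brighter than every negative control on both grhIM arrays. The rule chose the members on these same spots, so this count and the order of genotypes largely follow from the choice. In wild-type, 18 members were brighter than every negative control on both arrays, 9 on 1 array and 9 on neither. FBtr0078004 was among the last, with raw signals of 936 and 914 in grhIM, against 51 and 55.3 in wild-type. FBtr0075290 was among the 18, with raw signals of 62 and 67 in wild-type.

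The size of the difference was smaller on the raw scale, where the background is still in the signal. The summed raw signal in grhIM was 17.4 times that in wild-type for FBtr0078004, 1.89 times in the median member and 1.23 times in the lowest. In 19 members it was under 2 times. Processed signals at the bottom of the scale were small numbers: the 19 member spots that were not positive and significant on wild-type replicate 1 had processed signals of 3.19 to 4.93, and the 10 on wild-type replicate 2 had 2.14 to 3.12. The fitted fold of FBtr0078004, 288-fold, depends on values of this size. Its bound rests instead on the lowest marked levels in wild-type, which also lie near the bottom of the processed scale. The bound therefore holds for processed signals and is not a minimum on the raw scale.

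**Figure D3:**
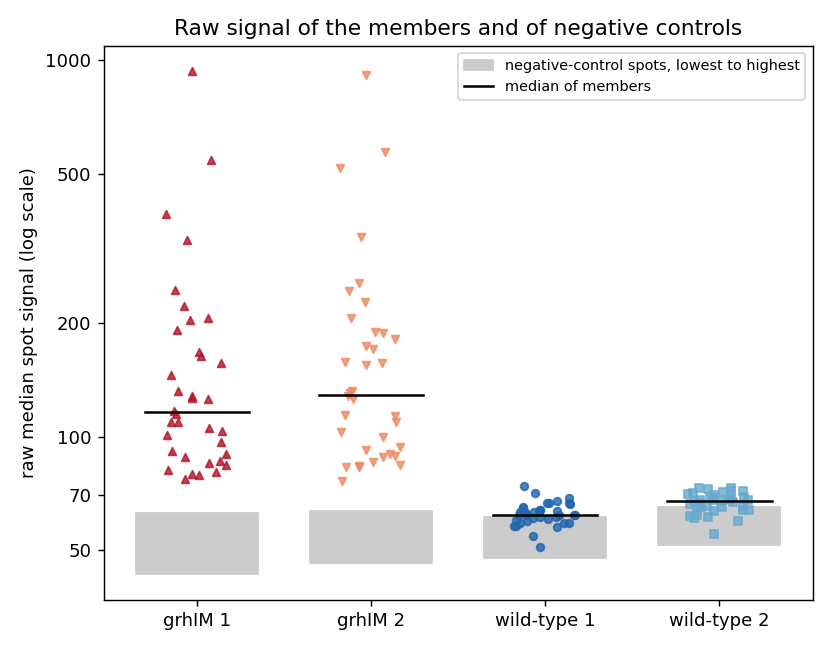
Points give the raw median spot signal of the 36 members on each array (log scale), black bars the members' median, and grey boxes the range of the negative-control spots. All grhIM points lie above the grey boxes, while the wild-type points, 51 to 74, straddle the upper edge of theirs.

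Different probes of a member gave the same direction. The 8 members with a second probe, or 22.2%, compare with 29.1% of all FBtr targets that had more than 1 probe. All 8 second probes were higher in grhIM, by 1.69 to 5.72, and 6 of them were marked well above background on both grhIM arrays. None was marked in wild-type, which the rule required. The rule also chose the targets by a rise in grhIM, which favoured this direction. The share of second probes of all FBtr targets with this direction was not counted, so the 8 are only described. The probes differed in size, with 3 second probes showing a larger and 5 a smaller difference than the chosen one. For rank 18 the second probe gave -1.57 and -1.51 in grhIM, against -5.19 and -5.69 in wild-type, close to the chosen probe at -1.65 and -1.53 in grhIM, against -5.29 and -5.10 in wild-type. The pair of rank 15 was the least alike. There the chosen probe had a difference of 3.93, while the second gave -4.57 and -4.59 in grhIM, against -5.98 and -6.63 in wild-type, a difference of 1.73, and was marked on no array.

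Repeated spots of a probe gave a measure of error within an array. For the 20 members whose chosen probe was printed on 2 spots, the spots differed on the log2 scale by 0.16 and 0.07 in the median on the grhIM arrays and by 0.42 and 0.47 on the wild-type arrays. The widest pair of spots was 1.46 apart on a grhIM array and 1.74 apart on a wild-type array. Of the 112 member spots used on the grhIM arrays, 108 were marked well above background, and of the 112 on the wild-type arrays, 0 were. The rule fixed the 0, and it required at least 1 marked spot per chosen probe on each grhIM array. The remaining 16 members had 1 spot of the chosen probe per array, so this error is not known for them.

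In the table of normalised intensities that the authors deposited, 31 of the 36 members were listed, or 86.1%, against 86.8% of all FBtr targets. All 31 were higher in grhIM. The deposited values come from the same 4 arrays and the rule chose on this direction, so that count is not a separate check. FBtr0078004 had values of 1020 and 913 in grhIM, against 51.5 and 51.4 in wild-type. FBtr0075290 had 572 and 553 in grhIM, against 65.7 and 62.1 in wild-type. The median log2 difference of the listed members was 1.19 in the table and 3.82 from processed signals, and the ratio of the first to the second ran from 0.191 to 0.518. A log2 difference of at least 1.58 was kept by 9 of the 31, beside 1.25% of all listed FBtr targets. All 9 lay among ranks 1 to 12. On the scale of the deposited table, then, most members were less than 3-fold higher in the mutant.

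**Figure D4:**
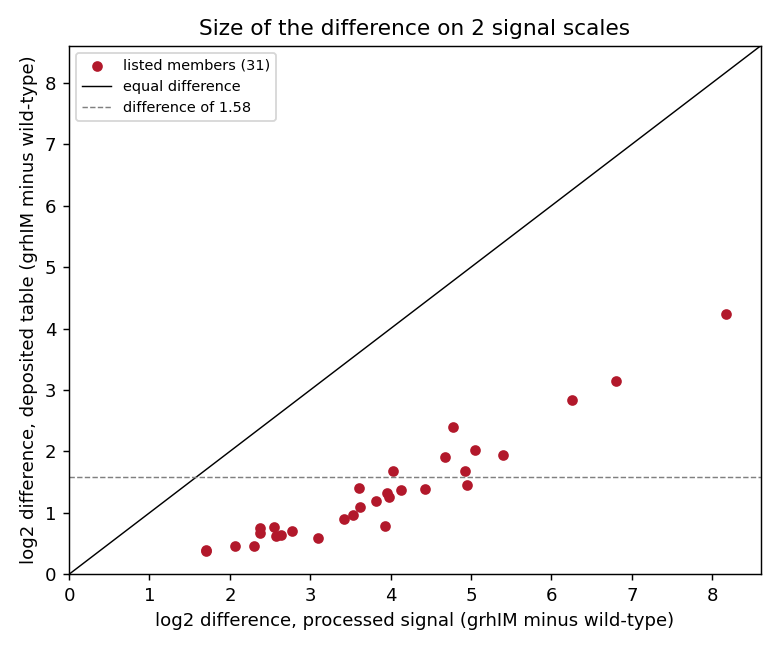
Each point is 1 of the 31 listed members, with its log2 difference (grhIM minus wild-type) from processed signals across and from the deposited table up; the solid line marks equality and the dashed line 1.58. All points lie under the solid line, at 0.191 to 0.518 of the processed difference, and 9 lie above the dashed line.

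The steps of the rule show where the members came from. No probe was marked in wild-type for 1392 of the FBtr targets. Of these, 1274 were marked on neither grhIM array, 75 on 1 and 43 on both, and of the 43 the rule kept 36. The other 7 had differences of 1.07 to 1.5. The same rule turned round, for targets marked on both wild-type arrays and with no probe marked in grhIM, gave 92 FBtr targets, or 0.624%. The genotypes had unlike detection limits, and 1688 FBtr targets had no probe marked in grhIM, against the 1392 in wild-type. The counts of 36 and 92 are therefore not like for like. The median bound was 7.04-fold for the members, against 4.61-fold for the 92, and at least 8-fold was reached by 17 of the 36 members, against 34 of the 92. The highest bound was 90.6-fold for the members, against 1782-fold for these. The bounds of the 92 used the lowest marked levels in grhIM, -4.72 and -5.21. Those of the members used the levels in wild-type, -5.04 and -5.82, which are lower on average. A higher limit gives a smaller bound, so the bounds of the 2 groups are not like for like. Among the 11466 targets with other accessions, such as clones, 47 met the members' rule, or 0.41%, with a median bound of 4.70-fold and a highest of 3262-fold. These groups were chosen by the same contrast, so their differences were not tested.

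The number of members depended on single arrays. Without wild-type replicate 2, whose detection limit was the lowest, 82 targets met the rule, of which 35 were among the 36. Without grhIM replicate 1, which marked the fewest targets, 60 met it, again with 35 of the 36. Without wild-type replicate 1 the number was 35 and without grhIM replicate 2 it was 43. Leaving out an array also removes its detection criterion from the rule, so other targets can join. A member could drop out only through its difference or a change of chosen probe. That at least 35 of the 36 stayed each time was thus largely fixed by the rule and is no check of them. The number of other targets that joined differed with the array.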

How the data were processed

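Per the file headers, the authors scanned 1-colour (Cy3) Agilent arrays and extracted signals with Agilent Feature Extraction 10.7.3.1 on a grid of build dm3. The deposited intensity values are linear. The processed signal is background-subtracted within the array and not scaled between arrays, while the median signals of spot and local background are raw. The deposited quality and detection marks are 0 or 1. A deposited table holds the authors' loess-normalised intensities, with a filter not given in the sources used here. Per the labels, 500 ng of RNA was labelled per sample.

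Control spots, non-uniform spots and outlier spots were omitted, and 15 gene probes thereby dropped out. Spots of a probe were averaged, log2 values were centred on the array median over gene probes, and a probe counted as marked if a share of at least 0.5 of its spots were. FBtr targets marked on both arrays of a genotype were compared with limma 3.58.1 in R 4.3.3 (lmFit, eBayes, 1 term for genotype), checked on simulated data. The number of arrays limits precision. The members and lists were chosen with earlier results of these data known. Alternatives covered scaling, background, probe rules, thresholds, a replicate block and single arrays left out. By the naming rule, members with a gene name and the 2 unnamed ones with the largest bounds are named; other members go by rank.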

Additional observations from a re-analysis of the deposited data

How the results depend on the processing

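Scaling to the 75th percentile, cyclic loess, quantile normalisation and no scaling left the number of members at 36, and spike-in scaling gave 34. It was 9 with normexp and 9 with the deposited table, all 9 among the 36 in each case. It was 4 when no probe was allowed to be positive and significant in wild-type, and 35 to 82 with single arrays left out. The median bound of 7.04-fold became 6.46-fold with cyclic loess, 6.43-fold with spike-in scaling, 1.92-fold with normexp and 5.42-fold to 8.12-fold with single arrays left out. The cause of these changes was not tested, but normexp by construction adds an offset of 50 to every signal, which lowers the folds of faint probes. The limma count of 33 called members lay between 27 and 36 under every alternative run, and was 36 with a replicate block. The members were chosen on this contrast, and the share of all tested targets called was not counted for the alternatives. Nothing is therefore read from that range. No label ties the replicate numbers of the genotypes to a shared batch. Deviations of same-numbered arrays from their group means correlated at 0.29 across 12988 targets. All second probes stayed higher in grhIM in every alternative run, and the differences of FBtr0078004 and FBtr0075290 kept their sign, with lowest values of 4.03 and 3.06 under normexp. The rule chose the members on this direction from the same arrays, so the kept signs are not a separate check.

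The planned normexp was fitted but not used. The fitted background means were -25.0 on grhIM replicate 2, where 2 spots had local backgrounds of up to 2532, and -750 on wild-type replicate 1, where 7 spots had up to 33938, compared with 15.6 on grhIM replicate 1 and 25.5 on wild-type replicate 2. The normexp values above set local backgrounds over 100 to the array's median. This, the positive-and-significant criterion, the choice of the brightest probe by linear signal and the fit over all targets were chosen after seeing the data. Signal over background limits all members in wild-type.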
